A study of Mus musculus with 6 samples.

Results

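Telomerase is the enzyme that adds telomeric repeats to chromosome ends, and shelterin is the protein complex that covers those repeats and hides the ends from the DNA damage response. Tert is the catalytic subunit of telomerase and copies the template of the RNA subunit Terc, while dyskerin, encoded by Dkc1, binds and stabilises that RNA. In shelterin, Terf1 and Terf2 bind double-stranded telomeric DNA, Tinf2 bridges them, and the POT1 proteins bind the single-stranded overhang. The mouse carries the POT1 gene as a pair of paralogues, Pot1a and Pot1b. Rif1 belongs to neither complex in mammals; it acts with 53BP1 in repair of broken and unprotected ends and in replication timing. Mouse pluripotent cells are known to express telomerase. H2A.X, the histone whose gene was deleted in the knockout cells, is phosphorylated at broken and at unprotected chromosome ends.

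The 8 genes described here are Tert, Dkc1, Terf1, Terf2, Tinf2, Pot1a, Pot1b and Rif1. They were taken by symbol from 3 deposited tables, each listing the same 22558 gene names, and all 8 were found and passed 1 FPKM (fragments per transcript length and sequencing depth) in each of the 6 libraries. Each library came from a single mouse culture at passage 25. The embryonic stem cells (ESC), of 129Sv background, comprised a culture in which Cre had deleted H2A.X and its Flox/Flox counterpart, which carries the floxed alleles without the deletion and which the series' design text calls wild type. The induced pluripotent stem cells (iPSC), of mixed 129Sv/C57 background, came from fibroblasts of the peritoneum (PF) or of the tail tip (TTF), with a line labelled 4N+ and a line labelled 4N- from each. The labels do not expand 4N; in this field the term refers to tetraploid complementation, in which a line must build an embryo inside a tetraploid host blastocyst. The iPSC labels name H2A.X and give no allele. All cultures grew on feeder cells with LIF and were replated on gelatin just before lysis to remove the feeders. The labels do not say whether a culture was clonal or whether the lines of a pair shared an animal. No condition has a second library in its table, so the comparisons within a table have no replicate check.

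H2afx, the targeted gene, stood at 6.18 FPKM in the knockout and 34.9 FPKM in the Flox/Flox library, the direction of the labels, and at 65.3 to 75.2 FPKM in the iPSC lines. Effective depth, recovered from the smallest values of intronless receptor genes, was 39059000 to 61181000 fragments, so that a 2000 bp transcript at 1 FPKM was covered by 70.2 to 110 fragments. All 14 pluripotency markers examined reached 1 FPKM in every library, with summed levels of 1634 FPKM in the knockout and 2727 to 3255 FPKM in the other 5. Of 16 trophoblast markers 13 reached 1 FPKM in the knockout, and their sum was 1492 FPKM there against 38.8 to 114 FPKM elsewhere. Of 11 markers of extraembryonic endoderm 6 reached 1 FPKM in the knockout. The list summed to 329 FPKM there, of which Sparc gave 247 FPKM, and to 69.5 to 105 FPKM elsewhere. Fibroblast markers summed to 67.5 FPKM in the PF 4N+ line, of which S100a4 gave 40.1 FPKM, and to 3.61 to 13.9 FPKM in the other libraries. Of this list Lum was listed at 0 in all 6. Genes with at least 5 FPKM in each of a table's libraries had a median log2 ratio that was -0.20 in the ESC table, -0.17 in the PF table and 0.01 in the TTF table, so a gene at the centre of the ESC or PF table is itself a little lower in the knockout or the 4N- line.

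The 8 genes lie on 8 chromosomes. On mm9 the deposited entries are Tert at chr13:73764449-73786489, Dkc1 at chrX:72341193-72376288, Terf1 at chr1:15795739-15833510, Terf2 at chr8:109593302-109620445, Tinf2 at chr14:56297918-56300654, Pot1a at chr6:25693735-25759226, Pot1b at chr17:55791323-55851926 and Rif1 at chr2:51928357-51977901. The Dkc1 interval is shared with the entry of Mpp1, which stood at 12.3 to 16.5 FPKM in the 6 libraries. Tinf2 shares 979 bp of transcript sequence with Gmpr2 in the annotation used here, and Dkc1 and Pot1b each have 2 partly similar transcripts of other genes, with matches of up to 517 and 501 bp. The sources used here do not say how fragments that fit 2 genes were assigned, and the values of these 3 genes are uncertain to that extent.

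Promoters are shown for 3 of the 8 genes: Pot1a and Pot1b, paralogues whose ratio differed between libraries, and Dkc1, which was among the genes at least 2-fold lower in the knockout. Rif1, which was also at least 2-fold lower there, and Terf1 had no promoter entry. Each sequence runs from 250 bases before to 50 bases after the start annotated by RefSeq on GRCm38.p6, and is read on the gene's own strand. Capitals mark matches on either strand to 4 motifs: the E-box CACGTG bound by Myc and Max, the GC box GGGCGG bound by Sp1, the cyclic AMP response element TGACGTCA, and the NRF1 core GCATGC.

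Pot1a, chr6:25809169-25809468, minus strand: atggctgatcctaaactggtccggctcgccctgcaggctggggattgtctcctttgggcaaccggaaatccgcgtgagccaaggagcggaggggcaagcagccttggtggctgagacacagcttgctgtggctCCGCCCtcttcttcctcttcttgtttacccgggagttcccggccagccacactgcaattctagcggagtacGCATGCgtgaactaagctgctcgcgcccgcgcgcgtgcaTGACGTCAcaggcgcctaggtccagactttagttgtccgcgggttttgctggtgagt
Pot1b, chr17:55712587-55712886, minus strand: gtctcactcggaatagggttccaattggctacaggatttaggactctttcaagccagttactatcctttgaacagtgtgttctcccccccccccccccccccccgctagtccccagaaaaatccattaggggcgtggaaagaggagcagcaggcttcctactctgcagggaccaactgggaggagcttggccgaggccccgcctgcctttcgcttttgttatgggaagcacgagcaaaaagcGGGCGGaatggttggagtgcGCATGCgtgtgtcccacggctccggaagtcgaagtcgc
Dkc1, chrX:75095604-75095903, plus strand: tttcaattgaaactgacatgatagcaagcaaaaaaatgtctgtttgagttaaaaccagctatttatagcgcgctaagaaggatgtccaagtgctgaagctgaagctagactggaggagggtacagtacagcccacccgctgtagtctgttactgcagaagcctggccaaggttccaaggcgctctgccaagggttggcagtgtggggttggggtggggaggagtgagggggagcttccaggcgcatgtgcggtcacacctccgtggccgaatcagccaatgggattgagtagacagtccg

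The Pot1a and Pot1b promoters each hold a GC box and an NRF1 core, and the Pot1a promoter also holds a cyclic AMP response element. The Dkc1 window holds none of the 4 motifs. Of 32851 mouse promoters of this length, 35.7% hold the GC box, 7.93% the NRF1 core, 7.15% the E-box and 1.79% the cyclic AMP response element. Among the other members with a promoter entry, the Tert window holds 2 GC boxes, the Terf2 window 1 GC box and the Tinf2 window 1 cyclic AMP response element. None of the 6 windows holds an E-box. The matches describe letters in these windows only.

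Levels of the 8 genes ranged from 1.86 FPKM (Pot1b in the PF 4N+ line) to 115 FPKM (Dkc1 in the TTF 4N+ line). On this per-length scale Dkc1, Rif1 and Terf1 were the 3 most abundant members in each library, Tinf2 came next in each, and Tert or Pot1b was the lowest. Tert was lowest in both ESC and both TTF libraries, and Pot1b was lowest in both PF libraries. Neighbours in this order had overlapping 95% counting intervals in 3 places: Terf1 and Rif1 in the knockout ESC, Pot1b and Terf2 in the Flox/Flox ESC, and Dkc1 and Rif1 in the PF 4N- line. Counting intervals are Poisson or conditional exact binomial intervals on approximate fragment numbers and cover counting error only.

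**Figure D1:**
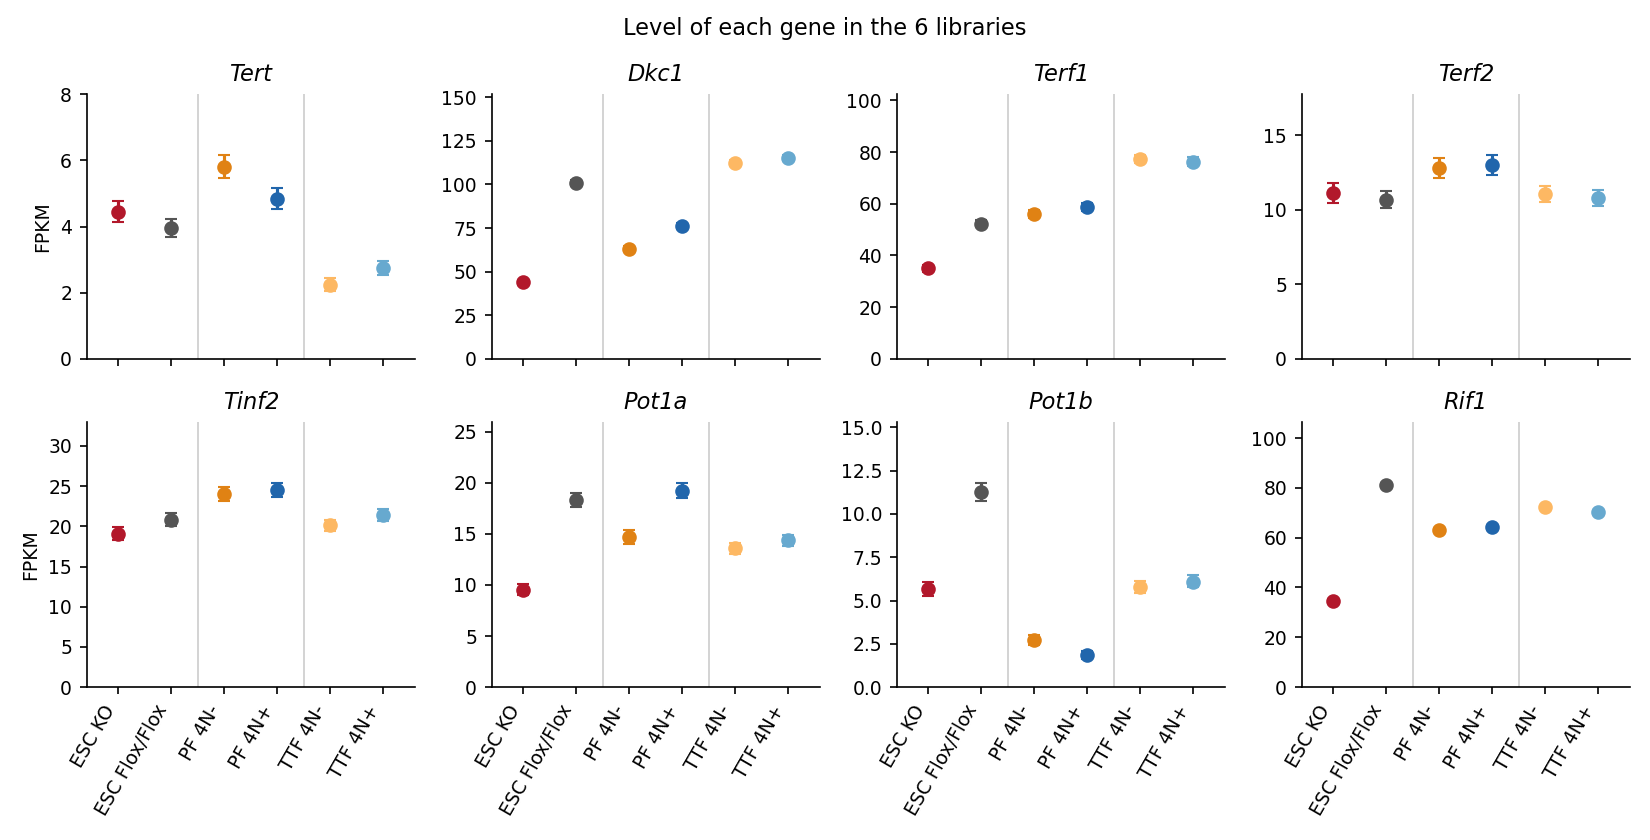
FPKM of each gene (vertical axes, each from 0) in the 6 libraries, 1 point per library with its 95% counting interval; vertical lines separate the 3 tables. Dkc1, Terf1, Pot1a and Rif1 are lowest in the knockout ESC, Pot1b is lowest in the PF lines at 1.86 and 2.71 FPKM, and Terf2 stays between 10.7 and 13.0 FPKM.

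Tert, the catalytic subunit of telomerase, was detected at low levels in each library. It stood at 4.45 FPKM in the knockout and 3.96 FPKM in the Flox/Flox ESC, at 5.81 FPKM in the PF 4N- and 4.83 FPKM in the PF 4N+ line, and at 2.24 FPKM in the TTF 4N- and 2.74 FPKM in the TTF 4N+ line. Between 564 and 1061 fragments stood behind these values. The PF lines were highest and the TTF lines lowest, and the ESC lay between; the intervals of the PF 4N+ line and of the knockout and Flox/Flox ESC overlapped along that order. The highest value was 2.59 times the lowest. Orders and ranges over libraries, here and below, set levels of the 3 tables side by side, and the tables were presumably scaled separately.

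In the knockout, Tert was 1.12-fold higher than in the Flox/Flox ESC, with a 95% counting interval of 1.01 to 1.24. Its log2 ratio, computed here and below as log2(FPKM + 1) of the first library minus that of the second, was 0.14, and it was 0.34 after centring on the median gene. The 4N- line was 1.20-fold higher than the 4N+ line in the PF pair (1.10 to 1.32) and 1.22-fold lower in the TTF pair (1.09 to 1.37). The iPSC pairs thus lay on opposite sides, each by a small amount.

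Dkc1, which encodes the dyskerin pseudouridine synthase shared by telomerase and by the small nucleolar particles that modify ribosomal RNA, was 9.86 to 50.1 times as abundant as Tert. It stood at 43.9 FPKM in the knockout and 100.6 FPKM in the Flox/Flox ESC, at 63.1 and 76.3 FPKM in the PF 4N- and 4N+ lines, and at 112 and 115 FPKM in the TTF 4N- and 4N+ lines. The knockout was the lowest of the 6 libraries, the PF lines came next, and the Flox/Flox ESC lay between the PF and the TTF lines. Dkc1 was 2.29-fold lower in the knockout than in the Flox/Flox ESC (2.22 to 2.37), a log2 ratio of -1.18. It was 1.21-fold lower in the PF 4N- than in the PF 4N+ line (1.17 to 1.25) and nearly level in the TTF pair, with a log2 ratio of -0.04.

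The levels of Tert and Dkc1 did not follow each other. Dkc1 over Tert was 9.86 in the knockout and 25.4 in the Flox/Flox ESC, 10.9 and 15.8 in the PF 4N- and 4N+ lines, and 50.1 and 42.0 in the TTF 4N- and 4N+ lines. The TTF lines combined the lowest Tert with the highest Dkc1. Terc, the RNA subunit, is not polyadenylated, and mRNA libraries are not made to capture it: its values corresponded to 1 to 5 fragments per library, too few for a comparison.

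**Figure D2:**
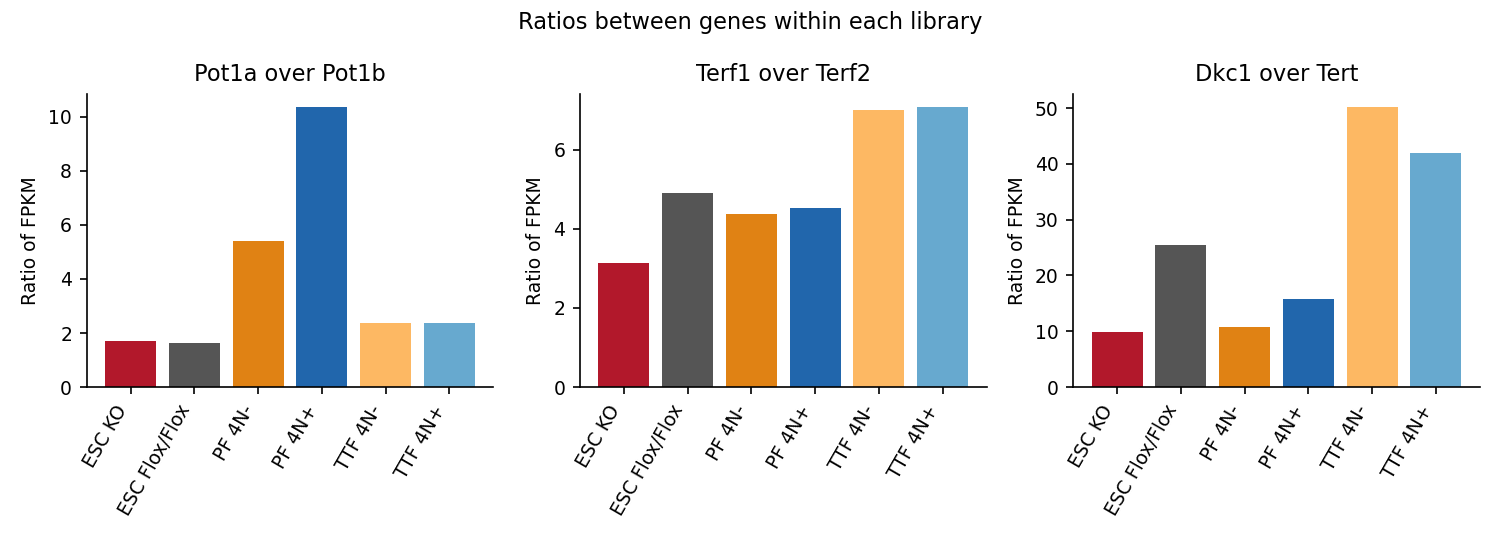
Ratio of the FPKM of 2 genes within each library (bars from 0, 1 library each, no error shown) for Pot1a over Pot1b, Terf1 over Terf2 and Dkc1 over Tert. Pot1a over Pot1b is 5.42 and 10.3 in the PF lines and 1.62 to 2.36 in the other 4 libraries; Dkc1 over Tert is highest in the TTF lines at 42.0 and 50.1.

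Among the double-strand binding subunits of shelterin, Terf1 varied and Terf2 did not vary beyond a narrow band. Terf1, a negative regulator of telomere length that also aids replication through the repeats, stood at 34.99 FPKM in the knockout ESC, 52.3 FPKM in the Flox/Flox ESC, 56.0 and 58.7 FPKM in the PF 4N- and 4N+ lines, and 77.4 and 76.3 FPKM in the TTF 4N- and 4N+ lines. The knockout was the lowest library and the TTF lines the highest. Terf1 was 1.49-fold lower in the knockout than in the Flox/Flox ESC (1.43 to 1.56; log2 ratio -0.57), and its log2 ratios in the PF and TTF pairs were -0.07 and 0.02.

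Terf2, which forms the protective loop at the chromosome end, stood at 11.1 FPKM in the knockout and 10.7 FPKM in the Flox/Flox ESC, 12.8 and 13.0 FPKM in the PF 4N- and 4N+ lines, and 11.1 and 10.8 FPKM in the TTF 4N- and 4N+ lines. Its values overlapped within counting error in each pair. Its highest value was 1.22 times its lowest, and 97.7% of the 12575 genes that reached 1 FPKM in some library had a wider range on the log2(FPKM + 1) scale. The ratio of Terf1 to Terf2 was 3.15 in the knockout, 4.38 to 4.90 in the Flox/Flox ESC and the PF lines, and 7.002 and 7.07 in the TTF lines.

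Tinf2, the bridging subunit TIN2, was as even. It stood at 19.1 and 20.8 FPKM in the knockout and Flox/Flox ESC, at 24.0 and 24.5 FPKM in the PF 4N- and 4N+ lines, and at 20.1 and 21.4 FPKM in the TTF 4N- and 4N+ lines. Its range was 1.28-fold, narrower than that of 93.9% of genes, and its log2 ratios were -0.12 in the ESC pair, -0.03 in the PF pair and -0.09 in the TTF pair. The PF lines were a little above the other 4 libraries.

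Pot1a and Pot1b encode the single-strand binding subunits. In the mouse, POT1a is known to restrain the DNA damage response at telomeres and POT1b to limit trimming of the end into an overhang. Pot1a stood at 9.53 FPKM in the knockout and 18.3 FPKM in the Flox/Flox ESC, at 14.7 and 19.2 FPKM in the PF 4N- and 4N+ lines, and at 13.6 and 14.4 FPKM in the TTF 4N- and 4N+ lines. The knockout was the lowest library, 1.92-fold below the Flox/Flox ESC (1.79 to 2.06; log2 ratio -0.87).

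Pot1b stood at 5.64 FPKM in the knockout and 11.3 FPKM in the Flox/Flox ESC, at 2.71 and 1.86 FPKM in the PF 4N- and 4N+ lines, and at 5.76 and 6.09 FPKM in the TTF 4N- and 4N+ lines. The Flox/Flox ESC was the highest library and the PF lines the lowest; the knockout ESC and the TTF lines lay together between them with overlapping intervals. The knockout was 1.997-fold below the Flox/Flox ESC (1.83 to 2.18), which on the log2(FPKM + 1) scale was -0.89. Pot1b had the widest range of the 8 genes, 6.06-fold, and 3.75% of genes had a wider one. Among the 4 iPSC lines alone its range was 3.28-fold. That range sets levels of the PF table against levels of the TTF table, and the tables were presumably scaled separately.

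The paralogues therefore had different proportions in different cultures. Pot1a over Pot1b was 1.69 in the knockout and 1.62 in the Flox/Flox ESC, where both genes were lower in the knockout by similar folds. It was 2.36 in each TTF line, and 5.42 in the PF 4N- and 10.3 in the PF 4N+ line. These are ratios within a library, on which the scaling of a table has no effect.

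In the PF pair the paralogues lay on opposite sides. Pot1b was 1.46-fold higher in the 4N- than in the 4N+ line (1.25 to 1.71), from about 400 and 274 fragments, with a log2 ratio of 0.38. Pot1a was 1.31-fold lower in the 4N- line (1.23 to 1.39), with a log2 ratio of -0.37. Genes on the chromosomes of both paralogues were displaced in this pair. The median log2 ratio was 0.21 over 335 genes of chromosome 17, where Pot1b lies, and -0.43 over 326 genes of chromosome 6, where Pot1a lies, against -0.17 over all 7184 genes at 5 FPKM or more. Relative to its own chromosome the log2 ratio of Pot1b was 0.17 and that of Pot1a was 0.07. In the TTF pair both paralogues were nearly level, with log2 ratios of -0.08 for Pot1a and -0.07 for Pot1b, and the chromosome medians were -0.01 and 0.04.

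Rif1, the 53BP1 effector, was among the most abundant of the 8. It stood at 34.7 FPKM in the knockout and 81.1 FPKM in the Flox/Flox ESC, at 62.9 and 64.2 FPKM in the PF 4N- and 4N+ lines, and at 72.1 and 70.4 FPKM in the TTF 4N- and 4N+ lines. The 4 iPSC lines lay within 1.15-fold of each other, narrower than 91.2% of genes tested there. The knockout was far below the other 5 libraries, 2.34-fold under the Flox/Flox ESC (2.29 to 2.39; log2 ratio -1.20), so most of the range of Rif1 over the series came from that library.

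The ESC comparison asked what differs where H2A.X has been deleted. Dkc1 and Rif1 were at least 2-fold lower in the knockout on the log2(FPKM + 1) scale, 2 of 8 members, where 3.72% of 12086 measured genes were; measured means 1 FPKM or more in at least 1 library of the table, and counts of 2-fold differences are all on that scale. No member was 2-fold higher, where 7.49% of measured genes were. The members called lay at -1.18 and -1.20, and the next were Pot1b at -0.89 and Pot1a at -0.87. In all, 6 members were lower and 2 higher, with a member median of -0.72 against -0.03 for all measured genes. After centring on the median of those well-expressed genes (at least 5 FPKM in each library), 5 were lower and 3 higher, since Tinf2 changed side to 0.08. The member median was then -0.52, and no member passed 2-fold: Rif1 stood at -0.997 and Dkc1 at -0.98. The authors' deposited table called 0 of the 8, where 1.44% of 14589 tested genes were. The lowest p-value of a member in the authors' deposited table was 0.070, for Dkc1, with a q-value of 0.614.

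**Figure D3:**
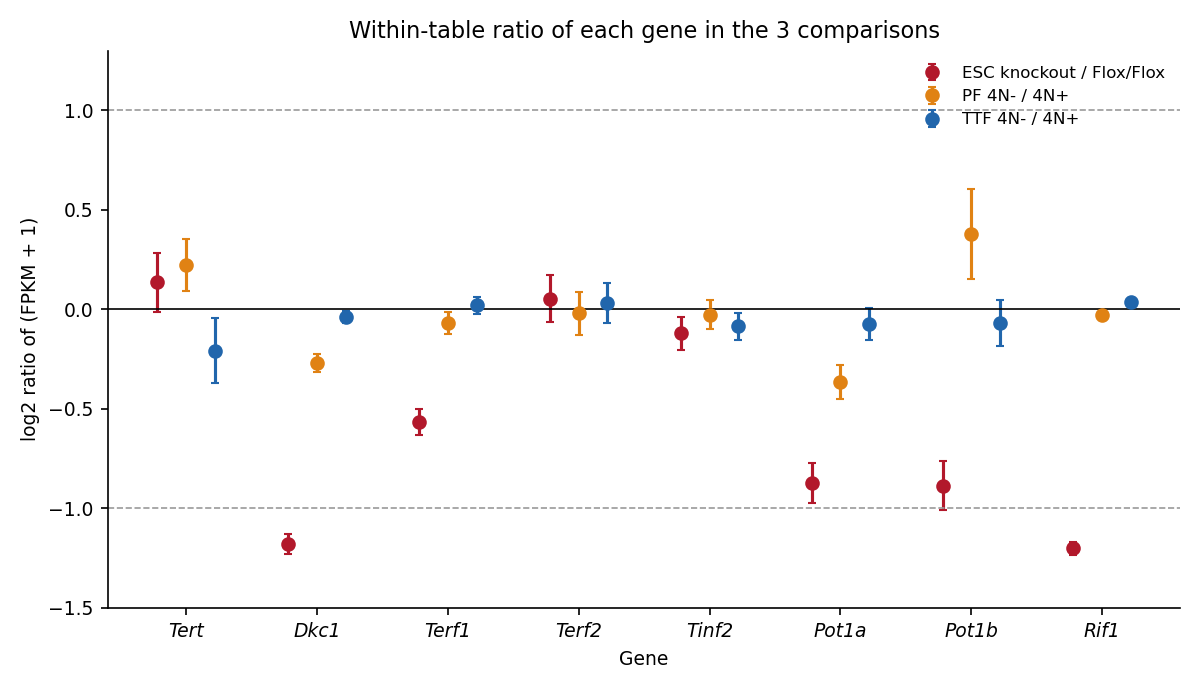
Log2 ratio of (FPKM + 1) for each gene (horizontal axis) in the ESC table (knockout over Flox/Flox), the PF table and the TTF table (4N- over 4N+), 1 library against 1; bars have the width of the 95% counting interval of the FPKM fold, and dashed lines mark 2-fold. Dkc1 at -1.18 and Rif1 at -1.20 lie beyond 2-fold in the ESC table, and no iPSC value does.

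All 5 marker lists were displaced in the ESC table. All 14 dividing-cell markers were lower in the knockout, with a median of -0.64 and a summed level of 844 against 1405 FPKM; 13 were lower after centring. All 14 pluripotency markers were lower, with a median of -0.85, and 13 after centring. Of 13 measured trophoblast markers 11 were at least 2-fold higher, with a median of 4.06. Eomes was lower at -0.39 and Ascl2 at -0.08, and Cdx2, Elf5 and Tpbpa stayed below 1 FPKM in both ESC libraries. Of 11 listed markers of extraembryonic endoderm 6 were measured, with a median of 1.53. Of these 4 were at least 2-fold higher: the matrix genes Col4a1, Col4a2 and Sparc, and Gata4 (2.29 against 0.60 FPKM). Dab2 was higher at 0.42, and Lama1 was lower at -0.19. Gata6, Sox17, Sox7, Foxa2 and Afp stayed below 1 FPKM in both ESC libraries. All 4 measured fibroblast markers were higher, 3 of them at least 2-fold, with a median of 1.14 and sums of 13.9 against 3.61 FPKM. In bulk libraries fewer cells of a type and less RNA per cell cannot be told apart, and the part of these shifts in the values of Dkc1, Rif1, Terf1, Pot1a and Pot1b was not tested.

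The other genes of the pathway, 70 genes in 7 lists, gave the setting for the members. Of these, 68 were measured in the ESC table, of which 55 were lower and 13 higher in the knockout, where 51.7% of all measured genes were lower; 10 were at least 2-fold lower and none 2-fold higher, with a median of -0.52. Of all 12086 measured genes 3.72% were at least 2-fold lower and 7.49% at least 2-fold higher. After centring 47 of the 68 were lower and 21 higher, with 4 at least 2-fold lower, 1 at least 2-fold higher and a median of -0.31. Of the 12086 genes, 202 were then at least 2-fold lower and 1412 at least 2-fold higher. The share of all measured genes lower after centring was not computed for any of the 3 tables. The pathway genes furthest from level were the heterochromatin protein gene Cbx1 (60.03 against 177 FPKM), the pluripotency factor Sox2 (48.5 against 142 FPKM) and Mycn (20.3 against 55.9 FPKM). They were followed by Suv420h1, a histone H4 methyltransferase (6.01 against 15.8 FPKM), Pola1, the catalytic subunit of DNA polymerase alpha that fills in telomere ends (15.0 against 34.6 FPKM), and the heterochromatin protein gene Cbx5 (46.5 against 103 FPKM). Sox2 is also among the pluripotency markers above. Pou5f1, Nanog, Klf4 and Esrrb are likewise both pathway genes and pluripotency markers, so their shifts are counted in each.

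Of 11 other telomerase genes measured, 8 were lower and 3 higher in the knockout, before and after centring, with a median of -0.39 and of -0.18 after centring. Among partners of dyskerin, Gar1 stood at 21.5 against 43.8 FPKM, Nop10 at 131 against 196 FPKM and Nhp2 at 89.99 against 119 FPKM. The assembly factor Naf1, at 8.004 against 17.3 FPKM, was the 1 gene of the 11 at least 2-fold lower on the log2(FPKM + 1) scale, on which Gar1 stood at -0.99, and it no longer was after centring. Wrap53, which guides telomerase to Cajal bodies, was higher in the knockout at 9.46 against 6.96 FPKM.

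The remaining shelterin genes did not share the position of Terf1 and the POT1 pair. Acd, which encodes TPP1, the subunit that recruits telomerase and holds POT1, stood at 10.4 FPKM in the knockout and 6.51 FPKM in the Flox/Flox ESC, a log2 ratio of 0.60. In the iPSC lines it stood at 11.7 and 9.80 FPKM in the PF 4N- and 4N+ lines and at 8.27 and 7.75 FPKM in the TTF 4N- and 4N+ lines. Terf2ip, which encodes the TRF2 partner RAP1, stood between 3.94 and 4.96 FPKM in all 6 libraries and had log2 ratios of -0.15, -0.01 and 0.02 in the ESC, PF and TTF tables. Of the 7 shelterin genes 5 were lower and 2 higher in the knockout, with a median of -0.15 and none 2-fold from level. After centring on the median gene 3 were lower and 4 higher, with a median of 0.05, and after centring on the chromosome 4 were lower and 3 higher, with a median of -0.03.

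Of the remaining lists, telomere end processing and replication had 14 of 14 genes lower in the knockout (11 after centring), with a median of -0.51; its furthest member was Nbn, a subunit of the MRE11 complex, at 5.05 against 11.8 FPKM. The partners of Rif1 had 8 of 9 lower before and after centring, with a median of -0.59: the kinase subunit Dbf4 stood at 68.5 against 139 FPKM, and Trp53bp1, which encodes 53BP1, at 9.86 against 16.0 FPKM. The telomeric chromatin list had 12 of 14 lower (10 after centring), and the CST list, with the polymerase alpha subunits, had 2 of 5 lower. Factors known at the Tert, Terf1 or Dkc1 genes had 10 of 13 lower (8 after centring). Among them Myc stood at 3.14 against 7.61 FPKM, and Nanog at 111 FPKM in both libraries. Before centring 51.7% of all measured genes were lower in the knockout, and all 14 dividing-cell markers were, with a median of -0.64.

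**Figure D4:**
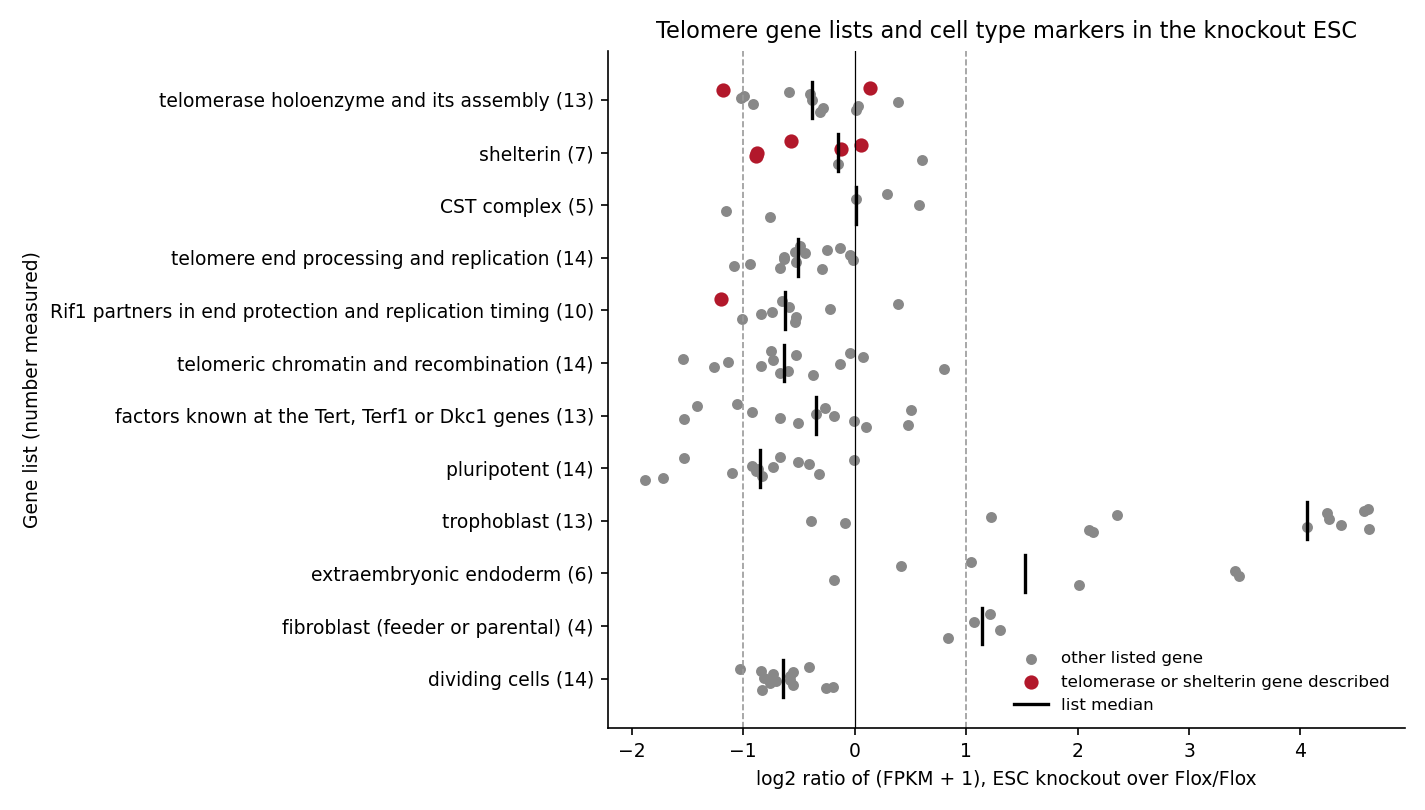
Log2 ratio of (FPKM + 1), knockout over Flox/Flox ESC (horizontal axis), for each measured gene of 7 telomere lists and 5 marker lists; each point is 1 gene, red points are the 8 members, black bars are list medians, dashed lines mark 2-fold and the number measured follows each name. The telomere lists have medians from -0.64 to 0.01, the dividing-cell markers lie at a median of -0.64 and the trophoblast markers at 4.06.

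In the PF pair, which compares a 4N- with a 4N+ line, 0 of 8 members differed 2-fold, where 1.55% of 11606 measured genes did. The authors' deposited table called 0 members, where 0.537% of 13956 tested genes were called, and the lowest member p-value was 0.191, for Pot1a. The member median was -0.03 against -0.13 for all measured genes. Only the direction of Tert and Pot1b, higher in the 4N- line, and of Dkc1, lower in it, was the same in each alternative setting that measured the gene, the centrings included; Terf1, Terf2, Tinf2 and Rif1 changed side after either centring and Pot1a after centring on its chromosome. Fibroblast markers moved with this pair, and all 8 measured of 14 listed were lower in the 4N- line. The list summed to 8.10 against 67.5 FPKM, of which S100a4 gave 0.15 and 40.1 FPKM. The part of these markers in the member values was not tested. Dividing-cell markers summed to 1257 and 1583 FPKM.

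Of the telomerase genes other than the members, all 11 measured were lower in the PF 4N- line, where 68.1% of all measured genes were lower. None of the 11 differed 2-fold. Their median was -0.33 against -0.13 for all measured genes, and 10 were lower after centring on the median gene and 9 after centring on the chromosome. Nhp2, the box H/ACA protein, stood at 113 against 196 FPKM, and Shq1, a dyskerin chaperone, at 9.36 against 15.8 FPKM. Of all 66 measured pathway genes outside the members, 53 were lower and 13 higher, with a median of -0.20, in a table with 68.1% of all measured genes lower. After centring on the median gene the split was 40 to 26, with a median of -0.03. Centring on the chromosome gave 39 lower and 26 higher, with a median of -0.03. Myc, at 2.09 against 5.74 FPKM, was the 1 gene of the 66 that was at least 2-fold lower on the log2(FPKM + 1) scale, and it no longer was after either centring. Rad50, the ATPase of the MRE11 complex, stood at 10.8 against 20.3 FPKM, Trp53bp1 at 10.7 against 17.5 FPKM and Cbx1 at 71.7 against 113 FPKM. The levels of these named genes were not centred. In this pair the median log2 ratio was -0.44 over 636 genes of chromosome 11 and -0.43 over 326 genes of chromosome 6. The part of such chromosome shifts in the values of the named genes was not tested.

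In the TTF pair the log2 ratios of the 8 genes spanned the narrowest range of the 3 tables. No member differed 2-fold, where 0.749% of 11354 measured genes did, and the authors' deposited table called 0 members, where 0.301% of 14289 tested genes were. The lowest member p-value in the authors' deposited table was 0.261, for Tert. Ratios ran from -0.21 for Tert to 0.04 for Rif1, with a median of -0.05 against 0.00 for all measured genes. Of the other pathway genes 33 were lower and 35 higher, where 49.9% of all measured genes were lower, with a median of 0.01 and none 2-fold from level. Myc, at 8.21 FPKM in the 4N- and 4.57 FPKM in the 4N+ line, was the 1 gene of the lists past 1.5-fold on the log2(FPKM + 1) scale, on the other side from the PF pair.

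Over both iPSC pairs, limma fitted the 4N- against 4N+ difference in log2(FPKM + 1) with parental cells as a block, which leaves 1 residual degree of freedom per gene. It called 0 of 8 members at an adjusted p below 0.05, where 0.117% of 11985 genes tested (14 genes) were called. None of the 8 reached an unadjusted p below 0.05, which 446 genes did. The limma differences were 0.01 for Tert (SE 0.16), -0.15 for Dkc1 (SE 0.21), -0.02 for Terf1 (SE 0.20), 0.01 for Terf2 (SE 0.16) and -0.06 for Tinf2 (SE 0.18). They were -0.22 for Pot1a (SE 0.17), 0.15 for Pot1b (SE 0.16) and 0.00 for Rif1 (SE 0.20). The adjusted p from limma was 0.999 for each member. Without centring, Dkc1, Tinf2 and Pot1a were lower in the 4N- line in both pairs and no member was higher in both. After centring on the median gene, Dkc1 and Pot1a were still lower in both, and Tinf2 stood at 0.14 and -0.10 in the PF and TTF pairs. Terf1 (0.10 and 0.01), Terf2 (0.15 and 0.02) and Rif1 (0.14 and 0.02) were then higher in both. Of 68 other pathway genes limma called 0. An unadjusted limma p below 0.05 was reached by 3 of the 68, where 446 of all 11985 genes tested reached it. Each was lower in the 4N- lines: Rad50 (-0.61, SE 0.18), Suv420h1 (-0.42, SE 0.16) and Nr2c2 (-0.33, SE 0.14). Their adjusted p from limma was 0.814, 0.999 and 0.999. This fit was not centred on the median gene or on the chromosome. The part of the chromosome shifts of the PF pair in these differences was not tested. With 2 pairs, a miss of the threshold does not show that the lines were alike.

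Profiles over the 6 libraries were also set beside those of a pool of 7888 genes at 5 FPKM or more in some library, without clone names, small RNA genes, date-like names and entries of several names, by the Euclidean distance between centred log2(FPKM + 1) values. Because levels from 3 tables enter, scaling of a table is part of each likeness. The genes nearest to Tert were Asah1 (distance 0.12) and Rtn1 (0.15), those nearest to Dkc1 were Srsf6 (0.13) and Zfp518a (0.15), and those nearest to Rif1 were Gsr (0.14) and Set (0.18). Nearest to Terf1 were Enoph1 (0.12) and Naca (0.16), nearest to Terf2 were Atrip (0.08) and Hinfp (0.10), and nearest to Tinf2 were Ppm1m (0.04) and Abcb10 (0.08). Nearest to Pot1a were Kif18a (0.13) and Ezh2 (0.13), and nearest to Pot1b were Hmgn2 (0.20) and Pdgfc (0.37). Hmgn2 shared the low values of Pot1b in the PF lines, at 2.60 and 1.82 FPKM, and its high value in the Flox/Flox ESC, at 10.1 FPKM. Among the members, Terf2 and Tinf2 had the most alike profiles, at a distance of 0.16, and that of Pot1b lay furthest from its nearest member, Dkc1, at 1.67.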

How the data were processed

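Messenger RNA was sequenced from 6 cultures, and 3 tables of 2 libraries each were used. CASAVA and TopHat2 on mm9 made them, per the submitters' processing notes. For the program that computed expression, its annotation, all versions and the use of strand, the sources used here give nothing. The library values are FPKM as deposited by the authors, identified from the values; p-values and q-values come from the authors' deposited tables, per the file headers. Loci were shifted to start at base 1.

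Values were analysed as log2(FPKM + 1), on which fold changes of low genes are understated, with genes at 1 FPKM or more in at least 1 library of a table. Comparisons of conditions stayed within a table, with differences of 2-fold counted without p-values; ranges and orders over libraries set levels of separate tables side by side. For the iPSC lines, limma 3.58.1 (R 4.3.3) was used (trend, Benjamini-Hochberg, two-sided), with parental cells as a replicate block and 1 residual degree of freedom; deviations within a parental pair correlated at 0.44 over 11985 genes, and the pairing comes from the parental cell label. Nothing says that lines of a pair shared an animal. The limma p-values rest on the disagreement between the pair ratios, moderated toward a variance trend over all genes tested. They are therefore not a measure of the spread of a gene between these lines alone. The fit was tested on simulated data.

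Effective depth was fitted so that receptor genes without introns gave whole fragments; within 0.05, 96.4% to 100% of the values tested were whole. Fragments of spliced genes are approximate, from the longest GENCODE M21 coding transcript, and no count test was run. Similar transcripts (90% identity over 300 bp) were found with blastn 2.17.0. Promoters matched 6 of the 8 symbols, and Ctc1 and Ten1 were found under older names.

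All 8 members were named. Other pathway genes were named at 1.5-fold or more, up to 6 per comparison, with Acd and Terf2ip and the 2 genes nearest each member; further list genes (Gar1, Nop10, Nhp2 and Naf1 with Wrap53, Nbn, Dbf4, Nanog, Suv420h1, Nr2c2 and, in the ESC table, Myc and Trp53bp1) were chosen after their values were seen. Members and lists were chosen with earlier results of these data known. Alternatives were another pseudocount, other filters, centring on the median gene or chromosome, and in limma no block, no trend, no small RNA genes and leaving out lines.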

Additional observations from a re-analysis of the deposited data

Results flagged for a closer look

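Of the 8 genes, 5 lay on opposite sides in the PF and the TTF pair, each pair being 1 line labelled 4N- against 1 labelled 4N+. The difference between the pairs was not tested, since each pair gives a single ratio. For Tert the log2 ratio was 0.22 in the PF pair and -0.21 in the TTF pair, a difference of 0.43. For Pot1b it was 0.38 and -0.07, a difference of 0.45, and chromosome 17, which carries Pot1b, had a median of 0.21 in the PF pair and 0.04 in the TTF pair. The other three were near level in both pairs: the differences were -0.0862 for Terf1, -0.0506 for Terf2 and -0.0638 for Rif1, and each of these genes changed side in the PF pair after centring.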

How the results depend on the processing

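In the ESC table the direction of 7 members was the same in each setting that measured them and Tinf2 changed side after centring; this held for 3 members in the PF table and for 7 in the TTF table, where Terf2 was the exception. In the ESC table the members at least 2-fold lower numbered 0 after centring on the median gene and 1 (Rif1) after centring on the chromosome median, and the member median was -0.52 and -0.46; with a minimum of 5 FPKM, which leaves out Tert, it was -0.87. The genes 2-fold lower numbered 202 after centring and 206 after chromosome centring, instead of 449. Those 2-fold higher numbered 1412 and 1383 after the centrings, 1586 with a pseudocount of 0.1 and 571 with a minimum of 5 FPKM, instead of 905. In the PF table the member median was 0.14 and 0.11 after the centrings, and 312 genes differed 2-fold with a pseudocount of 0.1, instead of 180. The cause was not tested.

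Over both iPSC pairs no member was called by limma in any setting that gave a test. The genes called numbered 3 with no replicate block, 0 with no filter on low values (1015 at an unadjusted p below 0.05), 67 with a minimum of 5 FPKM and 94 without small RNA genes, instead of 14. Without a block and with 1 line left out they ranged from 1 (without the PF 4N- line) to 17; the lone line is then assumed to vary like the others. The Tert difference was -0.0094 with a pseudocount of 0.1, and Terf1 and Tinf2 stood at 0.0541 and 0.0213 after centring. With a pair or a line left out the differences ranged from -0.53 to 0.54 for Tert, -0.57 to 0.26 for Dkc1, -0.25 to 0.21 for Terf1, -0.12 to 0.13 for Terf2, -0.18 to 0.0659 for Tinf2, -0.42 to -0.02 for Pot1a, -0.50 to 0.81 for Pot1b and -0.0940 to 0.10 for Rif1. Depth limits low members, such as Pot1b in the PF lines at 274 and 400 fragments.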
